A study of Mus musculus with 8 samples.

Results

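The genes described here make cholesterol and fatty acids or set how much of both is made. They are 35 named genes of the 24505 in the deposited count table, chosen by symbol, with 25 on the sterol side and 10 on the fatty acid side. Earlier results of these data were known when they were chosen. Of the 35, 33 had enough counts to be tested. The sterol side holds 8 enzymes of the early pathway, 11 enzymes of the late pathway and 6 genes of sterol sensing and transport. The RNA came from a pro-T line of the mouse, Scid.adh.2c2, and was read in 8 libraries, 2 for each of 4 groups. The cells had been infected with a GFP-marked retrovirus that was a mock control, carried wild-type Runx1 (Runx1 WT), carried a construct labelled Runx1 DN, or carried Satb1. Infected cells were sorted 2 days later and RNA was taken from 300000 cells per sample. DN is not spelled out in the labels (it is commonly short for dominant negative), the stretch of Runx1 in that construct is not stated, and nothing says that the libraries of a group were separate cultures. The p-values below therefore speak of the spread between these libraries alone, and that spread may be technical. All 4 groups come from the same cell line, and the controls too carry a retrovirus with GFP.

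Cholesterol is built from acetyl-CoA through mevalonate. The early enzymes make the isoprenoids farnesyl and geranylgeranyl diphosphate, and the late enzymes join farnesyl units into squalene, close it to lanosterol and trim lanosterol to cholesterol. Fatty acids start from the same acetyl-CoA, which is carboxylated, built into palmitate, then lengthened and desaturated. Transcription of most of these genes is driven by the SREBP factors (Srebf1, Srebf2), which the escort protein Scap carries out of the endoplasmic reticulum when sterols are low and which the Insig proteins hold back when sterols are high. SREBP proteins work at promoters together with NF-Y, which binds CCAAT boxes, and Sp1. Dividing lymphocytes draw on both pathways for membrane, and T cell activation is known to raise them.

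The libraries held 23624498 to 33093330 counts each. The mock libraries held 3643 and 4054 counts of Runx1, the Runx1 WT libraries 214392 and 232610 and the Runx1 DN libraries 509871 and 673390, and Satb1 went from 10172 and 11816 counts (mock) to 104312 and 125348 (Satb1), so both read as their labels say. All 9 T lineage markers were detected in every group. Their summed level was 3033 to 3160 CPM (counts scaled to library size and composition) in mock, 5139 to 5226 in Runx1 WT, 1149 to 1188 in Runx1 DN and 3281 to 3497 in Satb1. Not every marker moved with the sum. With Runx1 WT 7 of the 9 were called higher and 1 lower, against 38.9% and 31.8% of all genes tested. With Runx1 DN 1 was called higher and 7 lower, against 17.5% and 16.9%. Ptcra was that 1 gene each time, with 70.8 and 69.6 CPM in mock. It had 20 and 16 CPM in Runx1 WT and 110 and 96.9 in Runx1 DN. The 5 B lineage markers and the 4 erythroid markers were each under 1 CPM in every library, as were 3 of the 4 adipocyte and liver markers. The fourth of these, Adipoq, an adipocyte hormone, had 0.189 and 0.0958 CPM in the mock libraries and 1.28 and 2.07 in those of Runx1 WT, where it was called higher, and at most 0.324 in the others. Of 5 myeloid markers, Lyz2, Cd14 and Mpo were under 1 CPM throughout, and the summed level of the 5 was 7.19 to 9.51 CPM in mock, 68.4 to 72.8 in Runx1 WT, 15.01 to 17.2 in Runx1 DN and 12.3 to 19.6 in Satb1. Nearly all of that sum was 1 gene, Itgam, with 7.185 and 9.48 CPM in mock and 65.1 and 70.4 in Runx1 WT. Csf1r had 0 counts in mock and 2.89 and 2.14 CPM in Runx1 WT. The libraries numbered 2 of mock and of Satb1 stood apart from their partners in 18 glycolysis and hypoxia genes, all of which were higher in the library numbered 2, by a median log2 difference of 0.989 in mock and 1.264 in Satb1. The counts of calls in comparisons with mock or Satb1 are also given without them.

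Most of the promoters found for these genes hold a CCAAT box. RefSeq (GRCm38.p6) gave a promoter, 250 bases before to 50 after the start, for 28 of the 35 genes, and for 27025 genes in all. The letters CCAAT, the NF-Y box, lay on either strand in 21 of the 28, which is 75.0%, against 37.9% of all promoters and 39.9% of those of tested genes. The 7 genes without it were Acat2, Dhcr7, Scap, Acaca, Elovl6, Fads2 and Me1. A core of the sterol regulatory element, TCACNCCAC, was in 1 of the 28 (3.57%), the promoter of Hmgcs1. It was in 1.22% of all promoters and 1.05% of those of tested genes. The E-box CACGTG was in 4 of the 28 (14.3%, against 7.24% of all and 9.97% of tested genes). The letters of the Runx site were in 3 of the 28 as TGTGGT (10.7%, against 16.9% of all and 13.1% of tested genes). As TGCGGT they were in 5 of the 28 (17.9%, against 6.43% of all and 9.43% of tested genes). These shares describe letters in a window and are no count of bound sites.

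The promoters of 6 genes are printed because the results turn on their genes. The 250 bases before the start are given 5′ to 3′ on the strand of the gene, with CCAAT in capitals, which reads ATTGG where it lies on the other strand, and the Runx letters in capitals too. Idi1 (chr13:8885356-8885605, plus strand) and Hsd17b7 (chr1:169969206-169969455, minus strand) were among the sterol genes that fell most with Runx1 WT, Lss (chr10:76531355-76531604, plus strand) fell with Runx1 DN and did not pass the threshold with Runx1 WT, and Fasn (chr11:120824548-120824797, minus strand) fell with both. Fads2 (chr19:10101504-10101753, minus strand) and Acss2 (chr2:155517793-155518042, plus strand) are the fatty acid genes that rose with Runx1 WT.
Idi1: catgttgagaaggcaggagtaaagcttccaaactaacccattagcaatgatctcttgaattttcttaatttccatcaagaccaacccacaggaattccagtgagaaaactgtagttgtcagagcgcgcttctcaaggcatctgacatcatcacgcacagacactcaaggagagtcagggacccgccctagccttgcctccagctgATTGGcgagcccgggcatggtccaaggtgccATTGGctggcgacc
Hsd17b7: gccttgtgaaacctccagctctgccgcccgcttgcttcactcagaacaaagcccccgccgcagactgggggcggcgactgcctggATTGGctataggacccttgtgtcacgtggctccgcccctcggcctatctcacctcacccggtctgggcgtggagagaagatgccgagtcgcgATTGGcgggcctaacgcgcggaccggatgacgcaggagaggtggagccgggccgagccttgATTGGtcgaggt
Lss: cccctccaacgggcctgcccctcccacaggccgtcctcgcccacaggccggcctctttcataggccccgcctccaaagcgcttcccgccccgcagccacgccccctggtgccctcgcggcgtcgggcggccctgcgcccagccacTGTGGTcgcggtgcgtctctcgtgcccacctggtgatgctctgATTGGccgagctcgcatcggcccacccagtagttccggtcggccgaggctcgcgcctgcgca
Fasn: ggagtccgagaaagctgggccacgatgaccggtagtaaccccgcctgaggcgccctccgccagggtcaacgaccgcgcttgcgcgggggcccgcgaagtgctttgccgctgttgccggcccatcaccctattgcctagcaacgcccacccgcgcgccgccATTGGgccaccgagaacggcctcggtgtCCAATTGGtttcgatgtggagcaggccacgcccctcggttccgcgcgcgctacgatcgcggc
Fads2: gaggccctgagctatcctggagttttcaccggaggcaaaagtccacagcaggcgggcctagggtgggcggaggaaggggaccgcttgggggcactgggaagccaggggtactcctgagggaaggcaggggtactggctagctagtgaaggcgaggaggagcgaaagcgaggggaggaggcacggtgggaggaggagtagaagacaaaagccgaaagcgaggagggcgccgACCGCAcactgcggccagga
Acss2: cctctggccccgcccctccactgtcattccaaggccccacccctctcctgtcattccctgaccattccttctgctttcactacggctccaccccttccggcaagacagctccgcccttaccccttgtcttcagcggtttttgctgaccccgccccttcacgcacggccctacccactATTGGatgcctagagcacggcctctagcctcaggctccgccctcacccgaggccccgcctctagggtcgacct
ATTGG begins 45 and 14 bases before the start in Idi1, and 165, 73 and 12 bases before it in Hsd17b7. In Fasn it begins 90 and 59 bases before the start, and the second copy overlaps a CCAAT on the plus strand. In Lss it begins 62 bases and in Acss2 73 bases before the start. The Lss window also holds TGTGGT, 105 bases before the start. The Fads2 window holds no CCAAT, and its ACCGCA, the other strand of TGCGGT, begins 20 bases before the start.

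In mock cells these genes covered a wide range of levels. Per kilobase of the length in the table, the highest mean levels were those of Scd2, a stearoyl-CoA desaturase, at 395 CPM per kb, Fdps, farnesyl diphosphate synthase, at 148, Acly, the ATP citrate lyase that supplies acetyl-CoA, at 119, and Fasn, fatty acid synthase, at 107. Srebf2, the SREBP gene linked mainly to sterol synthesis, and Sqle, squalene epoxidase, followed at 94.7 and 93.5 CPM per kb. The lowest of the tested genes were Insig2, Acss2, Ggps1 and Tm7sf2, at 6.84, 6.66, 6.50 and 5.995 CPM per kb. Srebf2 stood above Srebf1, the SREBP gene linked mainly to fatty acid synthesis, by a ratio per length of 2.52 and 2.38 in the mock libraries. The 35 genes together took 0.494 to 0.743% of the counts of a library. Hmgcs1, which makes the precursor of mevalonate, is listed with 0 counts in all 8 libraries. Its row lies on unplaced sequence of chromosome 13 and is marked with 2 copies in the table, while the enzymes before and after it had counts in every library, so no level is given for it. Me1, the malic enzyme that supplies NADPH, had 0 to 5 counts per library, and a count of 0 allows up to 3 counts, 0.0953 to 0.125 CPM depending on the library (counting error only).

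**Figure D1:**
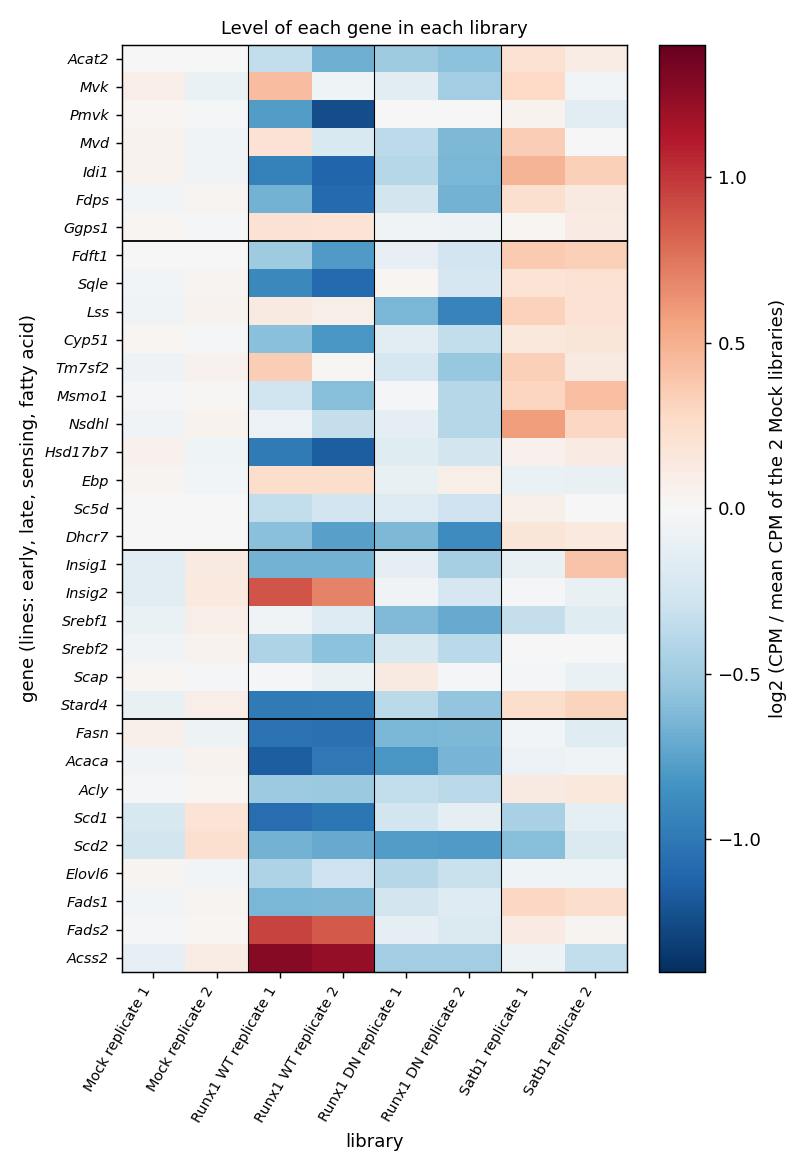
Level of each of the 33 tested genes in each of the 8 libraries, as log2 of CPM over the mean CPM of the mock libraries (blue lower, red higher), with lines between early sterol, late sterol, sensing and fatty acid genes. Both Runx1 WT columns are blue over most rows and red for Insig2, Fads2 and Acss2, and both Runx1 DN columns are blue or pale in nearly every row.

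Added wild-type Runx1 lowered most of the tested members on the sterol and the fatty acid side and raised a few. Against mock, 21 of the 33 tested genes fell, 5 rose and 7 did not pass the threshold (edgeR's quasi-likelihood test, adjusted p under 0.05). Of all 12699 genes tested, 31.8% fell and 38.9% rose in the same comparison, so the share of members that fell was above the background and the share that rose below it. The median log2 fold change was -0.50 over the 33 genes and 0.10 over all genes tested. Summed over the 18 tested sterol enzymes, the level was 1734 ± 4.24 CPM in mock (SD, n = 2) and 1172 ± 134 in Runx1 WT, 67.6% of mock. The 9 tested fatty acid genes summed to 4714 ± 525 CPM in mock and 2908 ± 23.3 in Runx1 WT, 61.7% of mock.

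Of the 7 early sterol enzymes tested, 4 fell and 1 rose with Runx1 WT. Idi1 (NM_145360, chr13:8884852-8891642, plus strand, mm9), the isomerase that makes dimethylallyl diphosphate, had 206 and 194 CPM in the mock libraries and 103 and 92.3 in the Runx1 WT libraries. The groups were far apart, and the log2 fold change was -1.03 ± 0.10 (SE; edgeR adjusted p = 5.96e-06). Pmvk, phosphomevalonate kinase, had 42.7 and 40.9 CPM in mock and 24.3 and 17.6 in Runx1 WT, a fall of 0.99 ± 0.13 on the log2 scale (edgeR adjusted p = 7.79e-05). Fdps, which makes the farnesyl diphosphate used for both sterols and protein prenylation, was lower by a log2 fold change of -0.86 ± 0.15, and Acat2, the thiolase of the first step, by -0.50 ± 0.10. Ggps1, which makes geranylgeranyl diphosphate for protein prenylation and lies off the path to cholesterol, rose by 0.19 ± 0.07 (edgeR adjusted p = 0.0375), a call that was lost in 14 of 20 alternative settings, among them the omission of any 1 library. Mvk, mevalonate kinase, and Mvd, which makes isopentenyl diphosphate, did not pass the threshold, at 0.21 ± 0.17 and 0.01 ± 0.15.

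Of the 11 late sterol enzymes, 7 fell and 1 rose. Hsd17b7 (NM_010476, chr1:171879668-171899336, minus strand), the ketosteroid reductase of the demethylation steps, had 46 and 42.3 CPM in mock and 22.2 and 19.9 in Runx1 WT. Its log2 fold change of -1.07 ± 0.09 (edgeR adjusted p = 2.25e-06) was the lowest among the sterol genes. Sqle (NM_009270, chr15:59146647-59162748, plus strand), a rate-limiting enzyme of the late pathway, had 248 and 263 CPM in mock and 136 and 120.1 in Runx1 WT, a log2 fold change of -0.995 ± 0.10. Both mock libraries lay well above both Runx1 WT libraries for each of these genes. Fdft1, squalene synthase, which commits farnesyl units to sterols, fell by 0.64 ± 0.10, Cyp51, the lanosterol demethylase, by 0.69 ± 0.09, and Dhcr7, the reductase that ends a branch of the pathway, by 0.67 ± 0.09. Fdft1 overlaps Ctsb on the opposite strand over 773 bases, and the counts do not use strand, so reads of the shared stretch cannot be told apart. Msmo1, the methylsterol oxidase, and Sc5d, the sterol desaturase, fell by 0.43 ± 0.13 and 0.31 ± 0.08, and the Msmo1 call was lost without Runx1 WT replicate 2 and without mock replicate 2. Ebp, the sterol isomerase, rose by 0.25 ± 0.09 (edgeR adjusted p = 0.0259), a call lost in 9 of 20 settings, among them the omission of any mock or Runx1 WT library. Lss, which closes squalene epoxide to lanosterol, Tm7sf2, a sterol reductase, and Nsdhl, a dehydrogenase of the demethylation steps, gave 0.10 ± 0.10, 0.19 ± 0.16 and -0.20 ± 0.13 and did not pass the threshold.

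The genes that sense and move sterol did not change as a block. Insig1, itself a target of SREBP, fell by 0.66 ± 0.16 on the log2 scale, whereas Insig2, its paralog, which is less tied to SREBP, rose by 0.78 ± 0.12 (edgeR adjusted p = 0.00396 and 0.000235). Insig1 had 126 and 152 CPM in mock and 88 and 88.2 in Runx1 WT. Insig2 had 16.5 and 20.3 CPM in mock and 33.8 and 29.7 in Runx1 WT. The ratio of Insig1 to Insig2 per length was 7.78 and 7.64 in mock and 2.66 and 3.02 in Runx1 WT, and the groups did not overlap. Stard4, a carrier of cholesterol between membranes, fell from 63.8 and 73.4 CPM in mock to 34.6 and 34.8, a log2 fold change of -0.98 ± 0.09. Srebf2 fell by 0.50 ± 0.08. Srebf1 and Scap, at -0.12 ± 0.09 and -0.05 ± 0.07, did not pass the threshold.

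On the fatty acid side 7 of 9 tested genes fell and 2 rose with Runx1 WT. Fasn (NM_007988, chr11:120667272-120685861, minus strand), which builds palmitate, had 1112 and 1008 CPM in mock and 519.7 and 512 in Runx1 WT, a log2 fold change of -1.04 ± 0.08 (edgeR adjusted p = 1.4e-06). Acaca, the carboxylase that feeds it with malonyl-CoA, had 316 and 340 CPM in mock and 148 and 164 in Runx1 WT, a log2 fold change of -1.08 ± 0.08. For both genes each Runx1 WT library lay near the middle between 0 and the mock level. Scd1 and Scd2, which put the first double bond into stearate and palmitate, fell by 1.04 ± 0.14 and 0.69 ± 0.16, Acly by 0.52 ± 0.06 and Elovl6, the elongase that makes stearate, by 0.36 ± 0.07. Scd1 and Scd2 are close paralogs, and reads that match both cannot be assigned with certainty.

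The neighbouring desaturase genes Fads1 and Fads2 moved in opposite directions. They act in turn on polyunsaturated fatty acids, Fads2 first, and lie head to head on chromosome 19 with their starts 81385 bases apart (mm9), with no other row of the table between them. Fads1 (NM_146094, chr19:10257378-10271362, plus strand) had 99 and 104 CPM in mock and 65.3 and 65.5 in Runx1 WT, a log2 fold change of -0.64 ± 0.07. Fads2 (NM_019699, chr19:10138654-10175993, minus strand) had 93.4 and 97.5 CPM in mock and 184 and 173 in Runx1 WT, a log2 fold change of 0.90 ± 0.07 (edgeR adjusted p = 1.39e-05 and 1.35e-06). The ratio of Fads2 to Fads1 per length went from 2.18 and 2.15 in mock to 6.50 and 6.08 in Runx1 WT. Acss2 (NM_019811, chr2:155343779-155388479, plus strand), which makes acetyl-CoA from acetate, had the largest rise of the 33 genes. It had 17.3 and 20.2 CPM in mock and 45.3 and 44.1 in Runx1 WT, a log2 fold change of 1.25 ± 0.11 (edgeR adjusted p = 4e-06). An antisense row, Acss2os, overlaps it with 7 to 55 counts per library against 321 to 1270 for Acss2.

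Without the mock and Satb1 libraries numbered 2, 13 sterol genes fell and 1 rose with Runx1 WT, against 14 and 3 with them, and the fatty acid counts were 7 and 2 either way. Genes of S phase and of glycolysis and hypoxia moved in the same comparison. All 14 S phase genes tested fell with Runx1 WT, with a median log2 fold change of -1.21, against 31.8% of all genes tested that fell. All 18 glycolysis and hypoxia genes fell too, with a median of -2.31, and limma voom called 16 of them lower. The mock libraries differed from each other in these 18 genes, as given above. In bulk samples such as these, fewer cells of a type and less RNA per cell cannot be told apart. The part of the growth state, or of the myeloid marker and Adipoq levels given above, in the falls of the sterol and fatty acid genes was not tested.

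**Figure D2:**
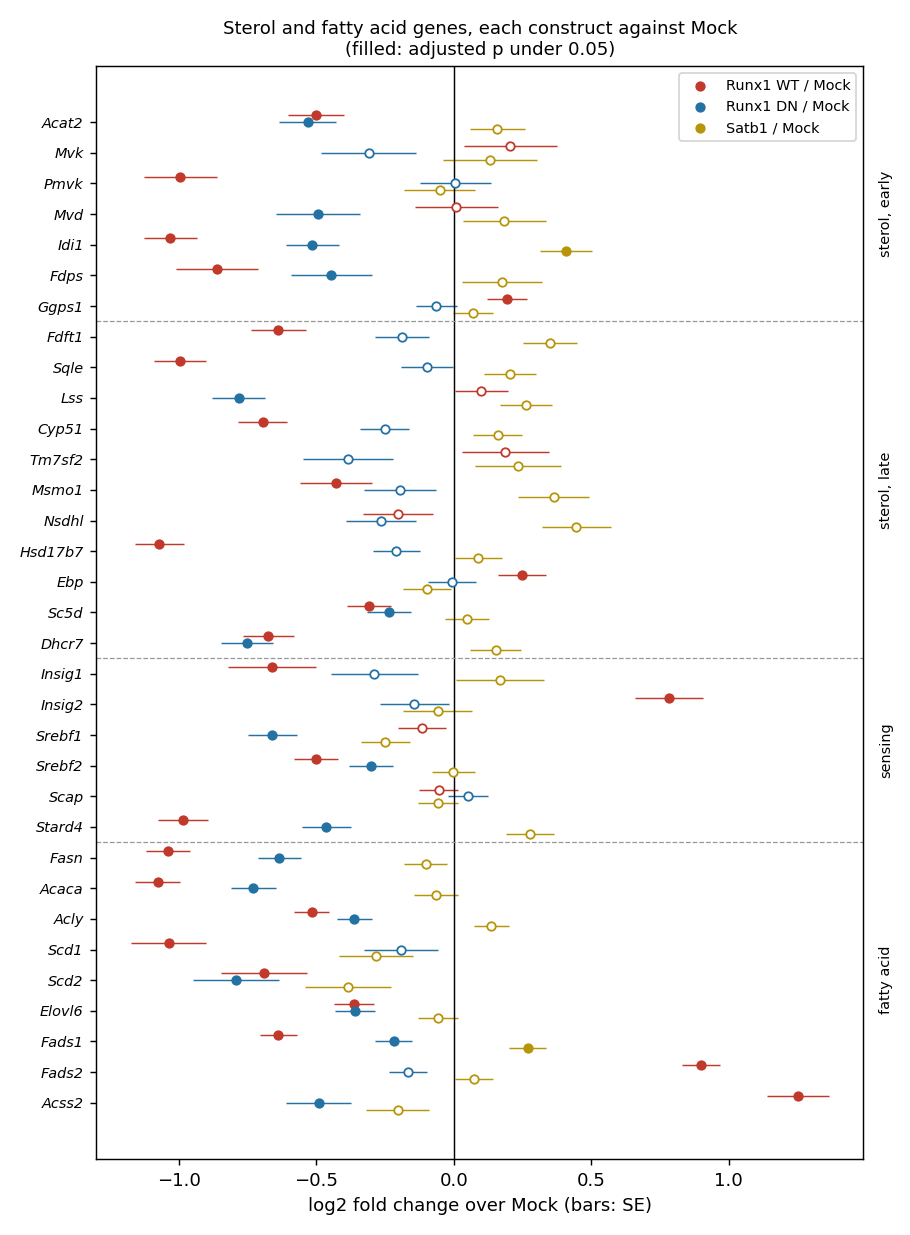
Log2 fold change over mock (x axis, bars SE) of the 33 tested genes for Runx1 WT (red), Runx1 DN (blue) and Satb1 (gold), with filled points where the adjusted p was under 0.05. Runx1 WT spans -1.08 to 1.25, filled Runx1 DN points all lie left of 0, and the filled Satb1 points are Idi1 and Fads1, right of 0.

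The Runx1 DN construct also lowered part of both pathways, with no member called higher. Of the 33 tested genes 17 fell, none rose and 16 did not pass the threshold of edgeR's test, against 16.9% of all genes tested that fell and 17.5% that rose. The count of members that rose was 0 at an unadjusted p under 0.05 and with DESeq2 and limma voom too. The median log2 fold change was -0.30 over the 33 genes and 0.00 over all genes tested. Of the 18 tested sterol enzymes 7 fell, 4 early and 3 late, and of the 6 sensing genes 3 fell. Of the 9 fatty acid genes 7 fell, and their summed level was 3089 ± 28.3 CPM, 65.5% of mock. Without Scd2, whose mock libraries differed most, it was 72.0% of mock. The summed sterol enzymes came to 1368 ± 153 CPM, 78.9% of mock.

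The genes that fell most with Runx1 DN were Scd2, Lss, Dhcr7, Acaca, Srebf1 and Fasn. Lss (NM_146006, chr10:75994350-76019884, plus strand) had 113 and 120.4 CPM in mock and 74.8 and 60.9 in Runx1 DN, a log2 fold change of -0.78 ± 0.10 (edgeR adjusted p = 0.00019). An antisense row, 4930483K19Rik, overlaps Lss with 113 to 299 counts per library against 1692 to 4238 for Lss. Srebf1 (NM_001313979, chr11:60012586-60034129, minus strand) had 156 and 176 CPM in mock and 108 and 102 in Runx1 DN, a log2 fold change of -0.66 ± 0.09 (edgeR adjusted p = 0.000328). It overlaps Rai1 on the opposite strand over 112 bases, where reads cannot be told apart. Rai1 had 3179 to 4683 counts per library against 2605 to 5529 for Srebf1. Neither Lss nor Srebf1 had passed the threshold with Runx1 WT. Dhcr7 (NM_007856, chr7:151009072-151034315, plus strand) had 113 and 114 CPM in mock, 73.3 and 61.3 in Runx1 DN and 75.4 and 66.6 in Runx1 WT, so both constructs lay below mock. Its log2 fold change with Runx1 DN was -0.75 ± 0.09 (edgeR adjusted p = 0.000206). Scd2 had 1797 and 2504 CPM in mock and 1247 and 1238 in Runx1 DN, a log2 fold change of -0.79 ± 0.16. Its mock libraries differed from each other by 0.48 on the log2 scale, yet both lay above both Runx1 DN libraries. Fasn had 681 and 685 CPM in Runx1 DN and Acaca 187 and 209, log2 fold changes of -0.63 ± 0.08 and -0.73 ± 0.08.

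Among the others, Acat2, Idi1, Stard4, Acss2, Mvd and Fdps fell by 0.44 to 0.53 on the log2 scale with Runx1 DN, and Acly, Elovl6, Srebf2, Sc5d and Fads1 by 0.22 to 0.36. Sqle had 261 and 218 CPM in Runx1 DN, with replicate 1 inside the range of the mock libraries and replicate 2 below it. Its log2 fold change was -0.10 ± 0.09 and did not pass the threshold, as was so for Hsd17b7 (-0.21 ± 0.09), Pmvk (0.01 ± 0.13), Fdft1 (-0.19 ± 0.10) and Cyp51 (-0.25 ± 0.09). Cyp51 was close to the threshold (edgeR adjusted p = 0.0527) and was called lower in 9 of 20 alternative settings, DESeq2 among them. Of the 17 calls, 10 held in each of 20 alternative settings, and these were Acat2, Idi1, Lss, Dhcr7, Srebf1, Fasn, Acaca, Acly, Scd2 and Elovl6. The calls of Mvd and Fdps were lost without either mock library or Runx1 DN replicate 2, that of Srebf2 without mock replicate 2 or Runx1 DN replicate 2, and those of Sc5d and Fads1 without any 1 mock, Runx1 DN or Satb1 library. The count of sterol genes called, 10, was 6 without mock replicate 2, 6 without Runx1 DN replicate 2 and 5 without the mock and Satb1 libraries numbered 2, where 5 fatty acid genes were called. Of the S phase genes 11 of 14 fell with Runx1 DN (median log2 fold change -0.26), against 16.9% of all genes tested. Of the glycolysis and hypoxia genes 13 of 18 fell (median -1.45), and limma voom called 11 lower. The part of both sets in the result was not tested.

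The direct comparison of the constructs divided the genes. Between Runx1 WT and Runx1 DN, 10 of the 33 were higher in Runx1 WT, 13 were lower and 10 did not pass the threshold, against 34.8% and 33.5% of all genes tested, so these fractions are near the background. The median over the 33 genes was -0.11 on the log2 scale. Acss2, with 13.3 and 13.4 CPM in Runx1 DN, was higher in Runx1 WT by 1.74 ± 0.12 (edgeR adjusted p = 5.75e-07), the largest difference of the 33. Acss2 rose with Runx1 WT and fell with Runx1 DN against the shared mock libraries, and it was the 1 gene of the 33 called in opposite directions there. Its fall with Runx1 DN did not pass the threshold without mock replicate 2 (log2 fold change -0.38, edgeR adjusted p = 0.0787).

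Fads2, with 87.1 and 83.1 CPM in Runx1 DN, was higher in Runx1 WT by 1.07 ± 0.07, and Insig2, with 17.8 and 15.6 CPM, by 0.93 ± 0.12. Neither had passed the threshold with Runx1 DN against mock (-0.17 ± 0.07 and -0.14 ± 0.13). Lss was higher in Runx1 WT by 0.88 ± 0.10 (edgeR adjusted p = 2.06e-05) and Srebf1 by 0.54 ± 0.09 (edgeR adjusted p = 0.000341), so that their levels differed between the constructs beyond the spread of the libraries. Tm7sf2, Mvk and Mvd were higher in Runx1 WT by 0.57 ± 0.16, 0.51 ± 0.17 and 0.50 ± 0.15, and each of these calls was lost without Runx1 WT replicate 1 and likewise without Runx1 DN replicate 2. Lower in Runx1 WT were Pmvk (-0.999 ± 0.13), Sqle (-0.90 ± 0.10), Hsd17b7 (-0.86 ± 0.09) and Scd1 (-0.84 ± 0.14), each with an edgeR adjusted p of 0.00032 or less. Dhcr7, Scd2, Elovl6 and Acat2 gave 0.08 ± 0.09, 0.10 ± 0.16, -0.00 ± 0.07 and 0.03 ± 0.10 and did not pass the threshold, which does not show that the constructs act alike on them.

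**Figure D3:**
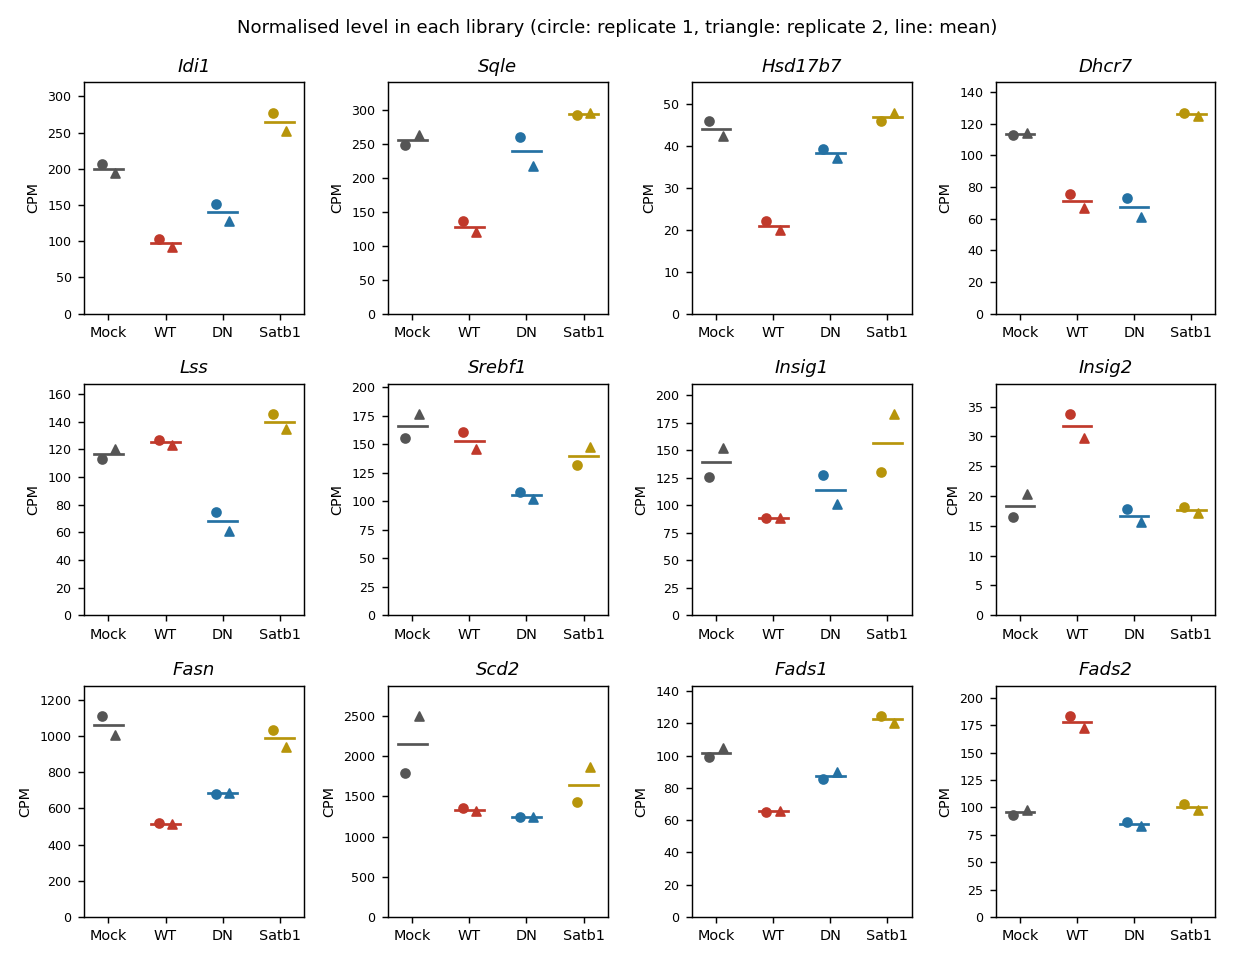
CPM (y axis, from 0) of 12 genes in each library, with circles for replicate 1, triangles for replicate 2 and lines for group means. Lss and Srebf1 are lowest in Runx1 DN, Sqle and Hsd17b7 are lowest in Runx1 WT, Dhcr7 is low in both, and Insig2 and Fads2 are highest in Runx1 WT while Insig1 and Fads1 are lowest there.

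Added Satb1 left most of these genes without a call, and the calls there were rises. Of the 33 genes, 2 rose (Idi1 and Fads1), none fell and 31 did not pass the threshold in edgeR's test, against 3.28% of all genes tested that rose and 3.09% that fell. At an unadjusted p under 0.05, 7 were higher and 2 lower, DESeq2 called 4 higher and none lower, and limma voom 2 higher and none lower. Idi1 had 278 and 253 CPM in Satb1 against 206 and 194 in mock, a log2 fold change of 0.41 ± 0.10 (edgeR adjusted p = 0.0322). Fads1 had 125 and 120.4 CPM in Satb1 against 99 and 104 in mock, a log2 fold change of 0.27 ± 0.07 (edgeR adjusted p = 0.0424). Neither pair of groups overlapped, but leaving out any mock or Satb1 library ended both calls. Without the libraries numbered 2 of mock and Satb1 the log2 fold changes were 0.43 for Idi1 and 0.34 for Fads1, with edgeR adjusted p of 0.272 and 0.282.

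Of the other sterol enzymes none passed the threshold with Satb1, and all but Pmvk (-0.05 ± 0.13) and Ebp (-0.10 ± 0.09) had positive log2 fold changes. Both Satb1 libraries lay above both mock libraries for 13 of the 18 sterol enzymes and below them for 1, while of all genes tested 25.8% had their Satb1 libraries above and 26.0% below. For the late enzymes alone it was 9 of 11 above. Nsdhl had 69.4 and 56.7 CPM in Satb1 against 44.5 and 47.9 in mock, a log2 fold change of 0.45 ± 0.13 (edgeR adjusted p = 0.0695). Msmo1 had 103 and 112 CPM against 82.7 and 84.9, a log2 fold change of 0.36 ± 0.13, and Fdft1 109.8 and 108 against 84.9 and 85.8, a log2 fold change of 0.35 ± 0.10 (edgeR adjusted p = 0.0691). The summed sterol enzymes were 2021 ± 65.1 CPM in Satb1, 117% of mock, and the summed sensing genes 100% of mock. The fatty acid genes summed to 87.8% of mock, and to 97.1% without Scd2, which had 1427 and 1868 CPM in Satb1. Of the S phase genes edgeR called 0 with Satb1 (median log2 fold change 0.06; 3 higher and 1 lower at an unadjusted p under 0.05, 1 higher by DESeq2, 0 by limma voom). Of the glycolysis and hypoxia genes it called 0 as well (median -0.40; 1 lower at an unadjusted p under 0.05, 0 by DESeq2 and 0 by limma voom).

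Set directly against the Satb1 libraries, 24 of the 33 genes were lower in Runx1 DN and none higher (edgeR; also 0 higher at an unadjusted p under 0.05, by DESeq2 and by limma voom), against 18.6% of all genes tested that were lower and 19.4% that were higher, and 21 were lower and 4 higher in Runx1 WT, against 32.2% and 38.7%. Idi1 was lower than in Satb1 by 1.44 ± 0.10 on the log2 scale in Runx1 WT and by 0.92 ± 0.10 in Runx1 DN, and Stard4 by 1.26 ± 0.09 and 0.74 ± 0.09. Lss was lower than in Satb1 by 1.05 ± 0.10 in Runx1 DN (edgeR adjusted p = 2.34e-05). These contrasts share libraries with those against mock and are no separate evidence. Without the libraries numbered 2, 15 sterol genes were lower and 2 higher in Runx1 WT than in Satb1, and 6 fatty acid genes were lower and 2 higher. The count of sterol genes lower in Runx1 DN than in Satb1, 18, was 9 without Runx1 DN replicate 2 and 11 without the mock and Satb1 libraries numbered 2, and that of fatty acid genes, 6, was then 5.

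**Figure D4:**
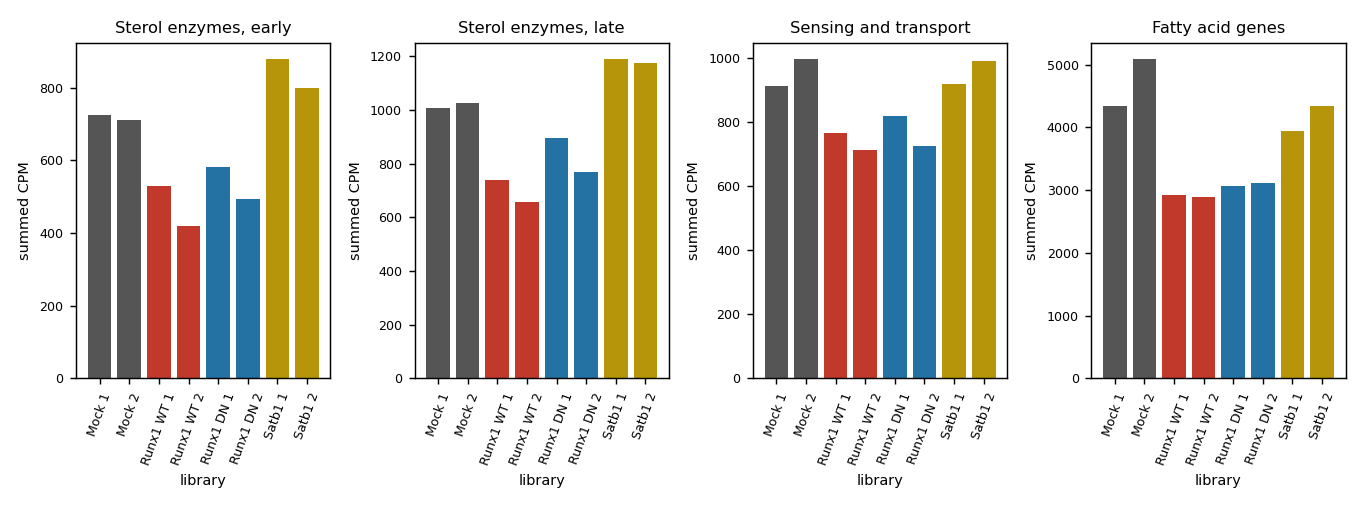
Summed CPM per library (bars, from 0) of the early sterol enzymes, the late sterol enzymes, the sensing and transport genes and the fatty acid genes. In every panel both Runx1 WT bars and both Runx1 DN bars are below both mock bars, and both Satb1 bars are above both mock bars for the sterol enzymes alone.

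The libraries of a group did not agree equally well on these genes. Among the 18 sterol enzymes, replicate 2 was above replicate 1 for 9 in mock (median log2 difference -0.002), 1 in Runx1 WT (median -0.24), 1 in Runx1 DN (median -0.25) and 5 in Satb1 (median -0.09). The fatty acid genes had medians of 0.08 in mock, -0.01 in Runx1 WT, 0.01 in Runx1 DN and -0.01 in Satb1. Mvk shows the spread within Runx1 WT, at 60.2 and 43 CPM, and Fdps that within Runx1 DN, at 179 and 136 CPM. With 1 library of Runx1 WT left out, the median log2 fold change of the sterol enzymes against mock was -0.34 (without replicate 2) or -0.64 (without replicate 1). For Runx1 DN it was -0.16 without replicate 2 and -0.39 without replicate 1. In mock the largest differences were those of Scd2 (0.48) and Scd1 (0.41), and in Satb1 those of Insig1 (0.49) and Scd2 (0.39). These genes were higher in the libraries that also had more RNA of glycolysis and hypoxia genes, and the part of that state in their level was not tested.

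**Figure D5:**
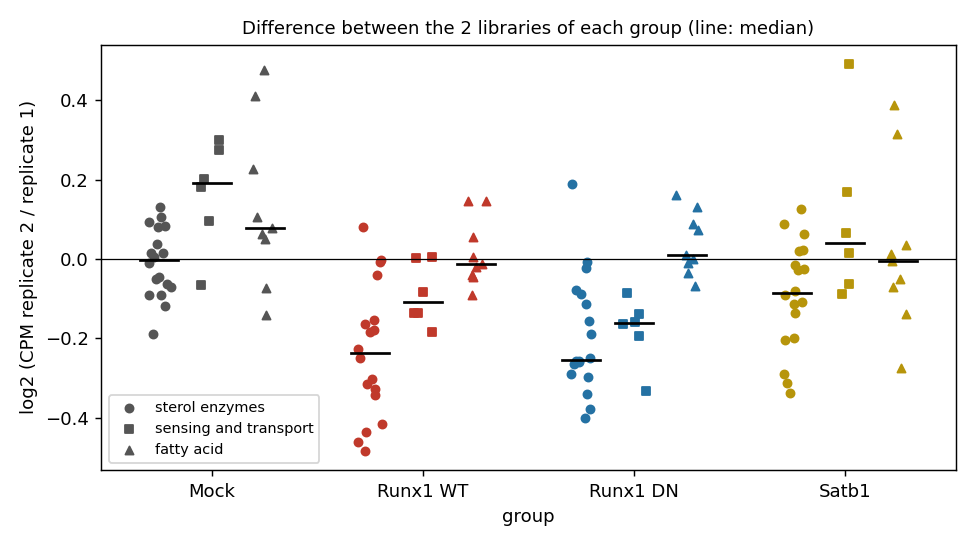
Log2 ratio of replicate 2 over replicate 1 (y axis) of each gene within each group, with circles for sterol enzymes, squares for sensing genes, triangles for fatty acid genes and lines for medians. The sterol enzymes lie mostly under 0 in Runx1 WT and Runx1 DN. The highest points are Scd2 (0.48) and Scd1 (0.41) in mock, and Insig1 (0.49) and Scd2 (0.39) in Satb1.

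Other genes of the same pathways were read from 4 further lists, against a background over all genes tested of 38.9% that rose and 31.8% that fell with Runx1 WT, 17.5% and 16.9% with Runx1 DN, and 3.28% and 3.09% with Satb1. Of 16 tested genes of sterol synthesis, uptake and SREBP processing, 6 fell and 4 rose with Runx1 WT, 2 fell and 3 rose with Runx1 DN, and 1 rose with Satb1, so the counts that fell lay near the background with both Runx1 constructs. Erlin1, which takes part in the turnover of sterol-regulated proteins, fell by 1.10 ± 0.10 with Runx1 WT, and Npc2, which hands cholesterol out of lysosomes, rose by 0.85 ± 0.07 with Runx1 WT, 0.44 ± 0.07 with Runx1 DN and 0.29 ± 0.07 with Satb1. Lipa, the lysosomal lipase that frees cholesterol from its esters, rose by 0.95 ± 0.10 with Runx1 DN.

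Of 8 tested genes of sterol efflux, storage and LXR, 5 rose and 1 fell with each Runx1 construct (DESeq2 called 3 and 1), against 38.9% and 31.8% of all genes with Runx1 WT and 17.5% and 16.9% with Runx1 DN. With Satb1 edgeR called 0 of them, with 1 higher and 2 lower at an unadjusted p under 0.05 and 0 called by DESeq2 and by limma voom. Abcg1, which exports sterol, had 2.5 and 1.79 CPM in mock, 17.8 and 17.6 in Runx1 WT and 10.2 and 10.1 in Runx1 DN. Its log2 fold changes were 3.06 ± 0.17 and 2.25 ± 0.17 (edgeR adjusted p = 1.77e-07 and 7.28e-06). Nr1h2, which encodes an LXR, rose by 0.92 ± 0.08 and 0.56 ± 0.08. Soat1, which esterifies cholesterol, fell by 1.08 ± 0.16 with Runx1 DN and was higher in Runx1 WT than in Runx1 DN by 1.398 ± 0.16.

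Of 21 other tested genes of fatty acid synthesis, elongation and activation, 7 fell and 4 rose with Runx1 WT, against 31.8% and 38.9% of all genes, so the count that fell was near the background and the count that rose below it. With Runx1 DN 7 fell and none rose, against 16.9% and 17.5% (edgeR; 1 higher at an unadjusted p under 0.05, 0 by DESeq2 and by limma voom). Dgat1, which puts the last fatty acid on triglyceride, had 29.7 and 26.7 CPM in mock and 288 and 261 in Runx1 WT, a log2 fold change of 3.28 ± 0.10 (edgeR adjusted p = 6.64e-09). Gpam, which starts glycerolipid synthesis, and Acsl5, which activates fatty acids, fell by 0.97 ± 0.09 and 0.89 ± 0.07. With Runx1 DN, Elovl5, an elongase of polyunsaturated fatty acids, fell by 0.60 ± 0.06 and Acsl3 by 0.56 ± 0.08. Of 12 tested genes of fatty acid oxidation, uptake and PPAR, 8 rose and 3 fell with Runx1 WT, against 38.9% and 31.8% of all genes, and 4 rose and 3 fell with Runx1 DN, against 17.5% and 16.9%. The counts that fell are not above the background with Runx1 WT. With Satb1 edgeR called 0 genes of either list, 5 in all were lower at an unadjusted p under 0.05, DESeq2 called 0 and limma voom 1. Lipe, the hormone-sensitive lipase, rose by 1.65 ± 0.18 with Runx1 WT, while Fabp5, a fatty acid carrier, fell by 3.59 ± 0.30 with Runx1 WT and 1.22 ± 0.27 with Runx1 DN. Cpt1a, which admits fatty acids to mitochondria, fell by 0.50 ± 0.10 with Runx1 DN and was higher in Runx1 WT than in Runx1 DN by 1.12 ± 0.10.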

How the data were processed

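RNA-seq libraries of 4 groups of 2 (mock, Runx1 WT, Runx1 DN and Satb1) were read at the level of 35 genes of sterol and fatty acid synthesis. Per the file headers, the authors made the deposited counts with HOMER over exons on mm9, uncorrected for depth and length and with a gene's transcripts condensed. These are raw counts under a table name that gives a different unit. A gene length in the deposited table was used for levels per kilobase. For each construct against mock the authors also deposited a log2 fold change and a p-value with its adjusted p-value, from edgeR per the file headers. Tools listed in the submitters' processing notes are Trimmomatic 033, STAR 2.4.0, RSEM 1.2.25, HOMER and, for edgeR, version 3.6.8. The kit named in the labels does not mark strand, and reads were single, of 50 nt.

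From the counts, 12699 of 24505 genes passed filterByExpr (minimum count 10, minimum total 15), 33 of the 35 genes among them. After TMM scaling, all 8 libraries entered a single quasi-likelihood fit of the 4 group means (edgeR 4.0.16 under R 4.3.3), with 4 residual and 5.84 prior degrees of freedom and a common biological coefficient of variation of 0.0818. The 6 comparisons were tested two-sided at 0.05, adjusted by Benjamini-Hochberg over all genes tested. SE is the log2 fold change divided by the square root of the F statistic. Values with ± after CPM are means with SD over 2 libraries. Libraries of a group differed 10.3 to 23.0 times more than counting noise (chi-square per degree of freedom), so each is a library of its own. On simulated counts with 200 of 12354 genes changed 2-fold between mock and Runx1 WT, the fit recovered 100% of them with 14 false calls. The changed genes there were well-counted ones, with as many up as down. Every gene had the same coefficient of variation, and no library stood apart. Smaller changes were not simulated, so the recovery does not carry over to them.

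The alternatives were other scalings, filters, DESeq2 1.42.0, limma voom 3.58.1, robust empirical Bayes, fits of 2 groups only, a replicate block, and omission of libraries or of the Runx1 and Satb1 rows. The members, lists, naming rule and tests were chosen with earlier results of these data known. All members are accounted for, and of the other lists at most the 3 genes with the smallest adjusted p per comparison are named. Promoters came from RefSeq (GRCm38.p6), the first listed for each symbol, searched on both strands. No coordinates were converted between builds.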

Additional observations from a re-analysis of the deposited data

How the results depend on the processing

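Of 3960 values of single genes (198 results in 20 settings), 3730 stayed on their side of the threshold, 159 lost the call and 71 gained it. No called value reversed, and 87 of the 3730, uncalled in both settings, changed sign. Calls held in all 20 settings for 22 of 26 genes in Runx1 WT against mock, 10 of 17 in Runx1 DN, 0 of 2 in Satb1, 16 of 23 in Runx1 WT against Runx1 DN, 24 of 25 in Runx1 WT against Satb1 and 12 of 24 in Runx1 DN against Satb1. The 10 sterol genes called with Runx1 DN were 5 without the mock and Satb1 libraries numbered 2 and 6 to 11 with 1 library left out. The 18 lower in Runx1 DN than in Satb1 were 11 and 9 to 18. The 1 sterol gene called with Satb1 became 2 with no filter, 3 with DESeq2, 3 with 2 groups only, 0 without the libraries numbered 2 and 0 to 2 with 1 left out, and the 1 fatty acid gene became 0 with no filter, 0 without the libraries numbered 2 and 0 to 1. Where a group kept 1 library, that library was assumed to vary like the other groups.

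With the replicate number as a block, 18 sterol genes were called with Runx1 WT, 15 with Runx1 DN and 3 with Satb1, and 9, 7 and 1 fatty acid genes. The numbers are not known to pair the libraries. The differences between replicates correlated at 0.392 between mock and Satb1, 0.193 between Runx1 WT and Runx1 DN and 0.068 to 0.089 otherwise, with 2 pairs in each case.

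With Runx1 WT, scaling by library totals alone moved the median of all genes tested from 0.097 to 0.22 on the log2 scale and ended the call of Sc5d, and DESeq2's factors gave 0.046. For Runx1 DN, 2227 genes rose and 2148 fell by TMM, 2901 and 1515 by library totals alone, and 2709 and 1693 by upper quartile factors. For Runx1 DN against Satb1 library totals alone gave 3070 higher and 1692 lower. Over all genes, 4375 calls for Runx1 DN were 2715 without the libraries numbered 2 and 2908 without Runx1 DN replicate 1. The 808 for Satb1 were 1265 with the block, 314 without the libraries numbered 2, and 430 to 524 without mock replicate 1 or 2 or Satb1 replicate 1. The 4825 for Runx1 DN against Satb1 were 3022 without the libraries numbered 2. The causes were not tested. Me1 had at most 5 counts per library, too few to test at this depth.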

Other observations

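The authors' deposited table gives its own calls for the 35 genes. At an adjusted p under 0.05 in the authors' deposited table, 3 were higher and 22 lower with Runx1 WT, 15 lower with Runx1 DN and 4 higher with Satb1. Of the 35 genes, 30 had the same call in the authors' deposited table and in the fit used here for Runx1 WT, 31 for Runx1 DN and 29 for Satb1 (the 2 untested genes count as differing), and no gene was called in opposite directions. Called in the authors' deposited table alone were Nsdhl (lower) with Runx1 WT, and Fdft1, Msmo1 and Nsdhl (higher) with Satb1. Called here alone were Ggps1 and Ebp with Runx1 WT, Sc5d and Fads1 with Runx1 DN, and Fads1 with Satb1.

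Ratios between related genes also differed between groups. The mock libraries had a ratio of Scd2 to Scd1 per length of 5.77 and 6.05. It was 7.81 and 7.29 with Runx1 WT, 4.11 and 3.73 with Runx1 DN, and 5.38 and 5.66 with Satb1. For Srebf2 over Srebf1 per length, the mock libraries had 2.52 and 2.38, those of Runx1 WT 1.87 and 1.87, those of Runx1 DN 3.22 and 3.05, and those of Satb1 3.07 and 2.76. For both ratios Runx1 WT and Runx1 DN lay on opposite sides of mock, with no overlap between these groups, and the ratios themselves were not tested.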
